A study of Mus musculus with 8 samples.

Results

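The genes described here encode peroxisomal enzymes, peroxisomal membrane transporters and peroxins, the proteins that build the organelle. They were chosen by gene symbol from a list of 38 genes, and every probe set that the platform annotation assigned to 1 of these symbols alone was used. This gave 34 probe sets for 28 genes, of 8252 genes with such a probe set in all. The other 10 listed genes (Acox2, Decr2, Pecr, Hacl1, Crot, Agps, Hao1, Prdx5, Pex3 and Pex16) were not analysed here. Expression was measured in the livers of 8 female Ames dwarf mice of genotype df/df, 1 Affymetrix mouse U74Av2 array for each liver. Ames dwarf mice make no growth hormone, no prolactin and no thyrotropin. They ate standard chow freely until death at an age between 24 and 26 months. All 8 livers form 1 group with no normal-sized or diet-restricted group beside it, so the data show how the genes differed from liver to liver, not how dwarf livers differ from others. The livers are numbered as in the sample titles.

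Peroxisomes shorten fatty acids that mitochondria handle poorly, namely very long, branched and dicarboxylic chains and the side chains of bile acid precursors. They also make ether lipids, detoxify glyoxylate, oxidise D-amino acids and, in mice, degrade urate, and many of these reactions release hydrogen peroxide. Matrix enzymes are made in the cytosol and imported by peroxins that recognise short signals at the ends of the proteins. In rodent liver the nuclear receptor PPAR-alpha raises transcription of many of the beta-oxidation genes, so the organelle is a classic target of fasting and of fibrate drugs.

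The promoters of Acaa1a and Acaa1b are shown because the brightest probe sets of these genes followed each other across the livers. These near-copies are both on chromosome 9 and both encode peroxisomal thiolases. The 250 bases before each RefSeq start site are printed, from assembly GRCm38.p6, with each GGGCGG (GC box) and each CCAAT box in capitals, the latter mostly in its complement ATTGG.
Acaa1a, chr9:119341044-119341293, plus strand: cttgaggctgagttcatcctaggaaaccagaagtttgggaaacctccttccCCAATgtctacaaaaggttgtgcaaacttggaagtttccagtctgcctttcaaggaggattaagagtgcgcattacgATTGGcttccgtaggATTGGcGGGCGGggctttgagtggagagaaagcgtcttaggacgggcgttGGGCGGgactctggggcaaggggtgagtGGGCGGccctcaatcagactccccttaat
Acaa1b, chr9:119157094-119157343, minus strand: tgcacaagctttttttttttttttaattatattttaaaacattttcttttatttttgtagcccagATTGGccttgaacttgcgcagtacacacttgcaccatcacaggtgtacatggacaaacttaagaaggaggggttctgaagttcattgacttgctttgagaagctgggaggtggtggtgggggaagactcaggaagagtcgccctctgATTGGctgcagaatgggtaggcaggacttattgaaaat
The Acaa1a window held 3 GC boxes and 3 CCAAT boxes and was 53.6% G or C. The Acaa1b window held 0 GC boxes and 2 CCAAT boxes and was 41.6% G or C. Aligned end to end with gaps, 148 of 288 columns held identical bases.

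Promoters of 31 of the 38 listed genes, 39 windows of 300 bases each, were in the RefSeq table. The GC box, searched on both strands, was in 61.5% of these windows. Among the windows of all genes tested for spread, as described below, 61.5% held it, and among all 32851 windows 35.7%. It was found in the promoters of 6 of 7 peroxin genes and 1 of 5 genes of amino acid, glycolate and urate oxidation, and not in those of 9 of the 31 genes, namely Agxt, Hao1, Pipox, Uox, Phyh, Abcd3, Acaa1b, Acox2 and Pex3. A direct repeat of the kind PPAR-alpha binds, AGGNCA followed after 1 base by AGGNCA, was in 0 member windows. It was in 0.317% of the windows of tested genes and in 0.381% of all windows. Its strict unit AGGTCA, which may lie inside such a repeat, was also searched on both strands. AGGTCA was in 10.3% of member windows, 13.8% of the windows of tested genes and 16.3% of all windows. Among the genes tested for spread, Phyh, Scp2 and Slc27a2 held it, Phyh after the start site. The matches before the start site, in Scp2 and Slc27a2, are printed here in capitals.
Scp2, chr4:108118631-108118676, minus strand: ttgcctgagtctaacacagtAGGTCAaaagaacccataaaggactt
Slc27a2, chr2:126552784-126552829, plus strand: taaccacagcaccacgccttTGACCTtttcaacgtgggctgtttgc
These matches describe the letters in the windows only.

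Signals are array intensities on a linear scale, used as deposited. Probe sets were tested where their log2 signal, averaged over the livers, exceeded the median for non-control probe sets, equal to a signal of 162 (6211 probe sets for 4819 genes), and 26 member genes with 30 probe sets were among them. A gene is represented by its tested probe set of highest mean signal, and spread is the standard deviation (SD) of log2 signal over the 8 livers. Dao, D-amino acid oxidase, had signals between 32.0 in liver 3 and 191 in liver 2. Abcd4, a transporter of the ABCD family that works in lysosomes, had signals between 116 and 192. Both had mean signals too low for testing, and without detection calls their signals could not be told from background.

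Livers 4 and 8 stood apart from the others in genes outside the peroxisomal list. Of the 12 macrophage and Kupffer cell markers with a probe set, 10 were tested, all 10 were highest in liver 4, and the summed signal of the 12 ran between 5297 in liver 7 and 23560 in liver 4. The mean deviation of these genes was 1.33 in liver 4 and 0.86 in liver 8 on the log2 scale, and -0.86 to 0.16 in the other livers. Interferon-response genes deviated by 2.36 and 1.78 in these livers. They were listed with livers 4 and 8 known to be high from earlier results of these data, so their values are not independent of that choice. Of 8 hepatocyte markers, 7 had a probe set and all 7 were tested, with a mean deviation of -0.24 in liver 4, -0.06 in liver 8 and between -0.17 and 0.23 elsewhere, and their summed signal was lowest in liver 4 (97551) and highest in liver 3 (137788). Of the 4 kidney markers, 0 were bright enough for testing, and Umod lay at or under the floor of 11.2 on all arrays. The others lay above the floor, Slc34a1 at 66.4 to 104.4, Kap at 13.2 to 98.6 and Napsa at 12.7 to 34.0. The ratio of 3′ to 5′ signal for beta-actin, a sign of RNA integrity, was 1.24 in liver 4 and 1.41 to 1.74 in the others. That for pyruvate carboxylase was 8.81 in liver 2, 6.04 in liver 3 and 2.93 to 4.69 in the others. That for Gapdh was 0.874 in liver 4 and 0.806 to 0.969 in the others.

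Peroxisomal genes were low together in livers 4 and 8 and high in liver 3. In liver 4, 25 of the 26 tested genes lay below their own mean, the exception being Pex2, and the median deviation was -0.30 on the log2 scale. In liver 8, 23 of 26 lay below it (median -0.17), the exceptions being Pxmp2, Pex2 and Pex13. In liver 3, 24 of 26 lay above it (median 0.20), the exceptions being Gnpat and Pex13. Over all 4819 tested genes the medians in these livers were -0.04, -0.01 and -0.01. Liver 4 gave the lowest value for 14 of 26 members (53.8%) against 22.4% of all tested genes, and liver 3 gave the highest for 11 (42.3%) against 11.4%. Livers 4 and 8 held the lowest values together for 13 members (50%) and for 11.5% of all tested genes. With arrays scaled to a common median, which moved the median of all tested genes to -0.12 in liver 4, -0.11 in liver 8 and 0.10 in liver 3, the members' medians were -0.38, -0.27 and 0.32. With quantile normalization the members' medians in these livers were -0.28, -0.17 and 0.17, and those of all tested genes -0.05, -0.02 and 0.02. In bulk liver, fewer hepatocytes and less of these RNAs per hepatocyte cannot be told apart. The macrophage and interferon values were high in livers 4 and 8, where the members were low. The hepatocyte score was lowest in liver 4 and highest in liver 3, while that of liver 8 lay within the range of the other livers. This score depended on the scaling. The median SD of the 7 hepatocyte markers was 0.177 as deposited and 0.0682 with quantile normalization. The part of these markers in the pattern was not tested.

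**Figure D1:**
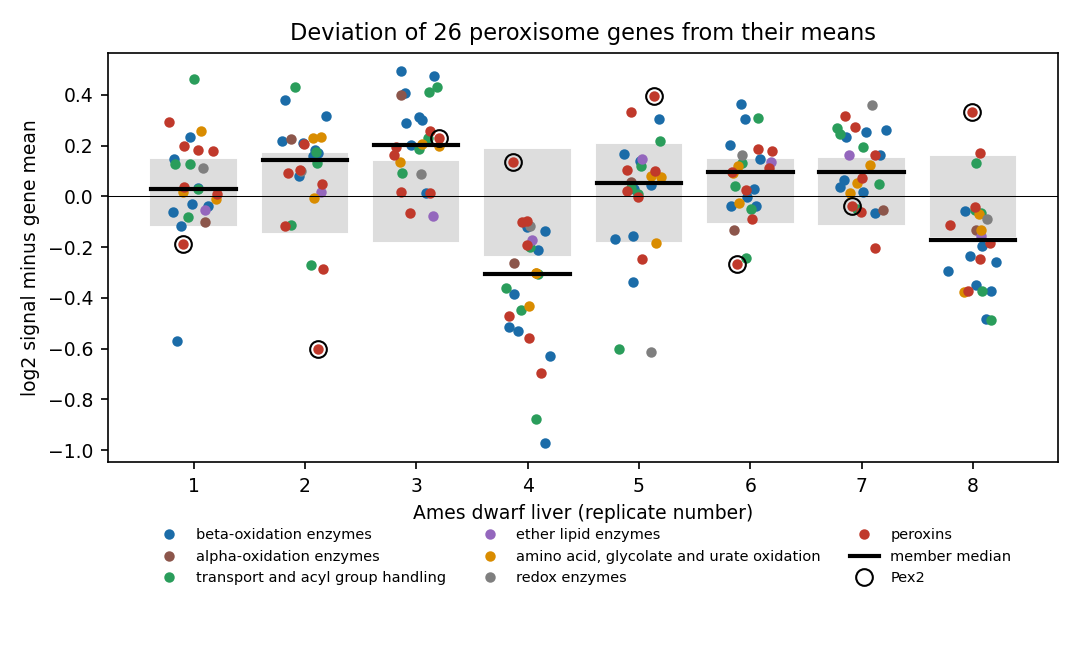
Deviation of each of 26 tested peroxisomal genes from its mean over the 8 livers, in log2 units (y axis), by liver (x axis). Points are genes coloured by role, black bars are the members' medians, grey boxes span the middle 50% of all 4819 tested genes, and Pex2 is ringed. The member medians lie at -0.30 in liver 4, -0.17 in liver 8 and 0.20 in liver 3, where those of all tested genes were -0.04, -0.01 and -0.01. The boxes show the spread of single genes, not of a list's median.

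The differences were small, and only Amacr and a probe set of Acaa1b passed an adjusted test against the spread typical of their signal. The range between lowest and highest liver had a median of 1.67-fold over the 26 genes and ran between 1.26-fold (Gnpat) and 2.55-fold (Amacr), against a median of 1.61-fold over all tested genes. The median SD was 0.25 for members and 0.23 for all tested genes. Each variance was tested against the typical variance at that signal, read from a loess curve, with a one-sided chi-square test and Benjamini-Hochberg adjustment over all tested probe sets (threshold 0.05). This typical-variance test called 2 of 30 member probe sets (6.67%), where 10% of all tested probe sets were called, and 1 of 26 member genes by their brightest probe set, where 9.09% of all genes were. The SD was above the typical one in 16 of the 30. The limma F test, which sets a variance against the distribution of all of them, called 0 of 30 (0.00% of all probe sets passed), and 0 of 30 had an unadjusted p under 0.05, against 6.84% of all probe sets. The 2 calls rested on liver 4: without it, or without livers 4 and 8, the typical-variance test called 0 of 30.

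**Figure D2:**
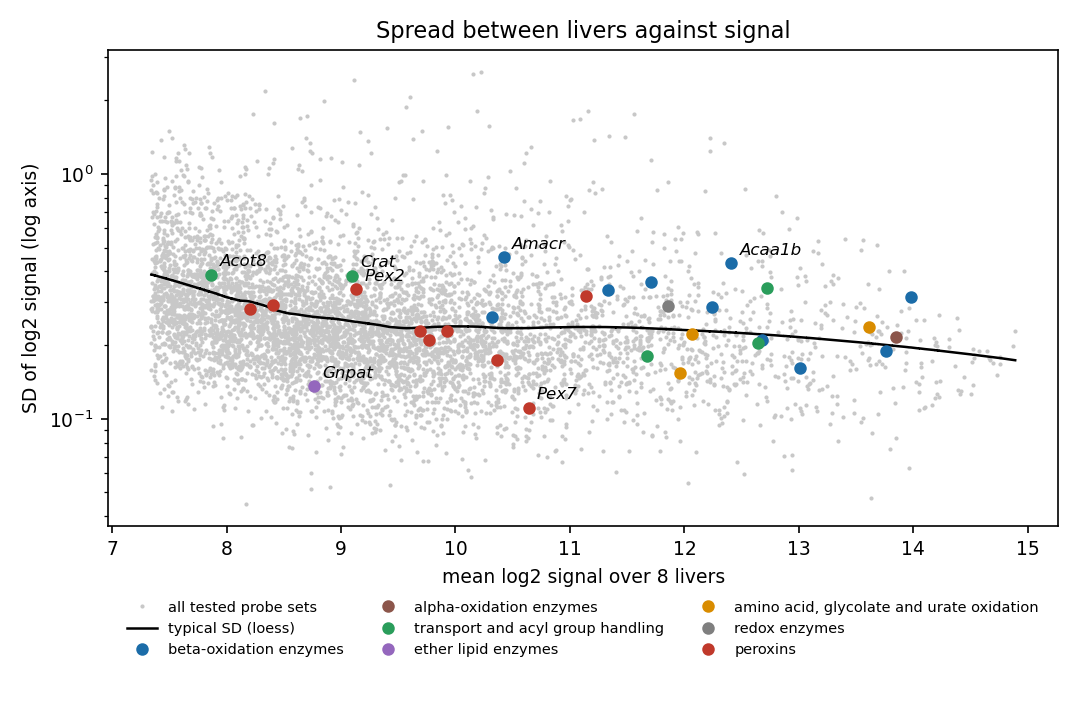
SD of log2 signal over the 8 livers (y axis, log scale) against mean log2 signal (x axis). Grey points are all 6211 tested probe sets, coloured points the 30 member probe sets by role, and the line is the typical SD. Amacr (0.46) and a probe set of Acaa1b (0.43) lie highest above the line among the members, and Pex7 (0.11) and Gnpat (0.14) lie below it.

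Among the beta-oxidation enzymes the common pattern was clearest. All 8 tested genes lay below their means in livers 4 and 8 and above them in livers 2 and 3, and their median deviation was -0.45 in liver 4 and 0.31 in liver 3. With quantile normalization 7 of the 8 lay above their means in liver 2. Livers 2 and 3 also had the highest 3′ to 5′ ratios of pyruvate carboxylase. Their ratios of beta-actin (1.6 and 1.41) and Gapdh (0.882 and 0.886) lay within the range of the other livers. The part of these ratios in the pattern was not tested. Amacr, the racemase that prepares branched-chain and bile acid intermediates for oxidation, was at 699 in liver 4, had a median of 1595 and reached 1785 in liver 2. Liver 4 was the low one, with the next lowest signal, 1085, in liver 5. Its SD was 0.46, against a typical SD of 0.23 at that signal (typical-variance test, adjusted p = 0.00572).

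Acaa1b encodes a thiolase, the enzyme of the last step of the cycle, that cuts off acetyl-CoA, and is known as strongly inducible by PPAR-alpha in mouse liver. Its brighter probe set was at 11290 in liver 4, had a median of 16363 and reached 22367 in liver 3, an SD of 0.31 that did not pass (adjusted p = 0.104). Its other probe set was at 3025 in liver 4, had a median of 5784 and reached 7596 in liver 3, an SD of 0.43 that passed (adjusted p = 0.00779). On both, liver 4 was lowest, liver 8 next to lowest and liver 3 highest, and they correlated at r = 0.787 over the 8 livers. Acaa1a, its near-copy, was at 5071 in liver 8, had a median of 6618 and reached 8018 in liver 3. Probes for sequences this similar can bind both transcripts, so the 2 genes are not certain to be measured apart.

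The isomerases and hydratases upstream of the thiolases spread more unevenly. Ech1, a dienoyl-CoA isomerase needed for unsaturated fatty acids, was at 2167 in liver 4, had a median of 3721 and reached 4131 in liver 5. Livers 4 and 8 (2397) were clearly apart from the other livers, which lay at 3274 or more. Eci2, an enoyl-CoA isomerase, was at 1736 in liver 1, had a median of 2544 and reached 3621 in liver 3, so its low liver was a different one. Their SDs of 0.36 and 0.34 did not pass (adjusted p = 0.152 and 0.299).

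The bifunctional enzymes, which hydrate and then dehydrogenate the chain, ranged less than 2-fold. Ehhadh, which serves the PPAR-alpha-inducible pathway, was at 978 in liver 4, had a median of 1254 and reached 1639 in liver 6. Hsd17b4, which serves very long and branched chains, was at 3364 in liver 4, had a median of 4985 and reached 6425 in liver 3. Scp2, whose long form is the thiolase for branched chains, was among the 5 most uniform members, with 11293 in liver 8, a median of 14032 and 17200 in liver 3 (SD 0.19). Its other probe set, whose sequence is shared with other transcripts by its name, ranged 1.33-fold and followed the brighter one poorly (r = 0.273), with liver 1 highest.

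**Figure D3:**
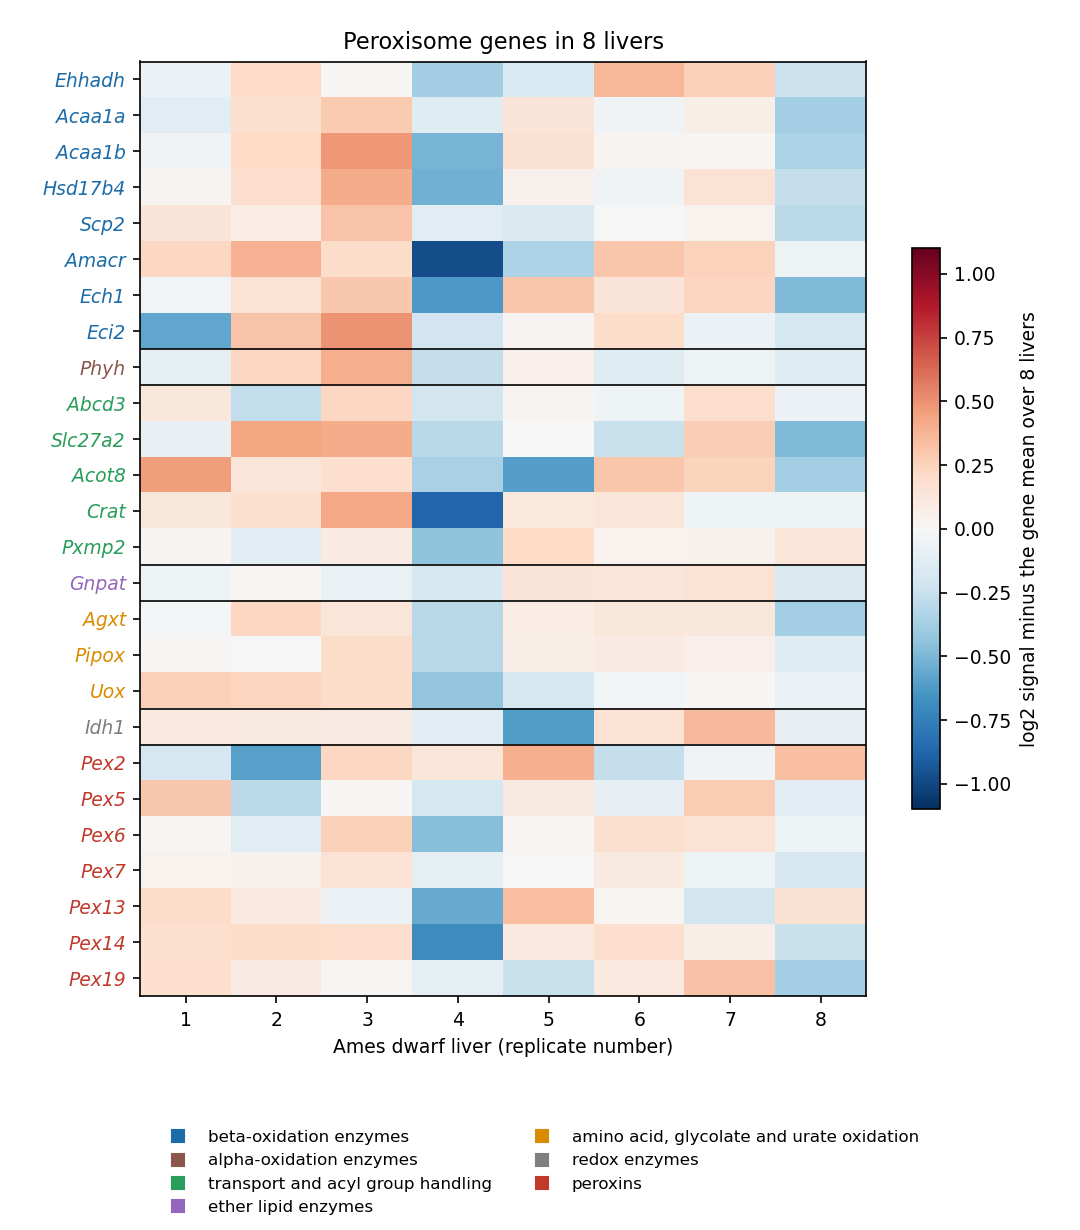
Log2 signal minus the gene's mean over the 8 livers (colour, red above and blue below) for the 26 tested genes (rows, grouped and coloured by role) in each liver (columns). The column of liver 4 is blue in 25 of 26 rows and that of liver 8 in 23, and Pex2 is the row that departs from this in both.

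Genes for moving and activating acyl groups held some of the wider ranges. Crat, carnitine acetyltransferase, which makes acetyl-carnitine for export and also works in mitochondria, was at 298 in liver 4, had a median of 596 and reached 737 in liver 3. The 7 other livers lay between 528 and 737, well apart from liver 4, and the SD of 0.38 did not pass (adjusted p = 0.156). A much dimmer Crat probe set, below the signal needed for testing, did not follow it (r = 0.281). Slc27a2, a very long-chain acyl-CoA synthetase, was at 4810 in liver 8, had a median of 6577 and reached 9095 in liver 2, with liver 4 (5453) next to lowest (SD 0.34, adjusted p = 0.139).

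Acot8, a thioesterase that ends chain shortening by freeing the acid, was at 154 in liver 5, had a median of 261 and reached 322 in liver 1 (SD 0.39, adjusted p = 0.78). Livers 5, 8 (181) and 4 (182) were low, and all 3 signals were near the lower limit for testing. Abcd3, the main acyl-CoA importer of the membrane, was uniform, with 2697 in liver 2, a median of 3236 and 3819 in liver 3 (SD 0.18). Pxmp2, a membrane channel protein, ranged 1.59-fold and was lowest in liver 4 (4696), the other livers lying at 5922 or more.

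Enzymes of alpha-oxidation, ether lipids, glyoxylate and urate ranged between 1.26-fold (Gnpat) and 1.615-fold (Uox), where the median over all tested genes was 1.61-fold. Phyh, which starts the breakdown of phytanic acid, ranged 1.58-fold, with 12352 in liver 4 and 19508 in liver 3. Gnpat, which starts ether lipid synthesis, was at 386 in liver 4, had a median of 430.0 and reached 487 in liver 7, the narrowest range of all 26 genes (SD 0.14). Pipox, an oxidase of sarcosine and pipecolate, was at 3231 in liver 4, had a median of 4079 and reached 4575 in liver 3 (SD 0.15). Agxt, which converts glyoxylate to glycine, was at 3302 in liver 8 and 3479 in liver 4, and at 4257 to 5030 in the other livers. Uox, urate oxidase, was at 9258 in liver 4, had a median of 12453 and reached 14951 in liver 1.

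Idh1, the cytosolic and peroxisomal NADP-dependent isocitrate dehydrogenase that supplies NADPH, ranged more widely and was lowest in another liver. It was at 2426 in liver 5, had a median of 3957 and reached 4759 in liver 7 (SD 0.29, adjusted p = 0.639). Liver 5 was low by itself, while liver 4 (3427) and liver 8 (3490) lay much nearer to the other livers, at 3940 or more. Acot8 also had its lowest signal in liver 5, and Idh1 correlated more highly with Acot8 than with any other member (r = 0.846).

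Peroxins moved less together, and Pex2 correlated negatively, in part weakly, with most other members. Of 7 tested peroxins, 6 lay below their means in liver 4 and 5 in liver 8, with median deviations of -0.19 and -0.11. Pex2, a ring-finger subunit of the ubiquitin ligase that recycles the import receptor, was at 370.1 in liver 2, had a median of 582 and reached 738 in liver 5, with liver 8 next at 706 and liver 4 at 617. Its SD of 0.34 did not pass (adjusted p = 0.396). Its correlation with 21 of the 25 other members was below 0, with a mean r of -0.257, the lowest of the 26 genes and the single negative one. The single values ran between -0.678 with Acot8 and 0.375 with Abcd3.

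The receptors and docking proteins of matrix import differed in spread. Pex7, the receptor for the amino-terminal import signal, was the most uniform member, with 1408 in liver 8, a median of 1618 and 1789 in liver 3 (SD 0.11). Pex5, the receptor for the carboxy-terminal signal, ranged 1.49-fold, with 717 in liver 2 and 1071 in liver 1. Pex14, the docking protein these receptors meet at the membrane, was at 1394 in liver 4, had a median of 2490.4 and reached 2601 in liver 2 (SD 0.32, adjusted p = 0.437). Livers 4 and 8 (1904) were low, and the other 6 livers lay between 2371 and 2601. A shared-sequence Pex14 probe set had liver 4 lowest as well (r = 0.627 with the brightest), and another Pex14 probe set had liver 2 lowest (r = 0.396), and these dimmer probe sets did not follow each other (r = -0.265).

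The remaining peroxins had liver 4 or liver 8 lowest. Pex13, the partner of Pex14 in docking, ranged 1.85-fold with 200.1 in liver 4 and 371 in liver 5. Pex6, an ATPase that pulls receptors out of the membrane, ranged 1.66-fold, and Pex19, the chaperone of membrane proteins, ranged 1.61-fold and was lowest in liver 8 (751). A second Pex19 probe set stayed under a signal of 32.5 and was not tested.

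Over all 325 pairs of the 26 genes, 294 correlations across the livers were above 0 and their median was 0.501. The mean was 0.449, against 0.00509 over all pairs of tested genes. Other liver gene lists had means of like size. The 7 tested hepatocyte markers had 0.533, and 0.0383 with quantile normalization, where the members had 0.449. The 14 tested genes of PPAR-alpha and mitochondrial fatty acid oxidation, described below, had 0.407. By role the members' mean was 0.649 for 8 beta-oxidation enzymes and 0.688 for 3 genes of amino acid and urate oxidation. It was 0.404 for 5 genes of transport and acyl handling and 0.227 for 7 peroxins. Hsd17b4 and Acaa1b were the most alike pair (r = 0.957), and Hsd17b4 also had the highest mean correlation with the other members (0.652), followed by Pipox (0.644) and Pex14 (0.627). The value depended on the livers that stood apart. The mean correlation of the 26 genes was 0.273 without liver 4 and 0.112 without livers 4 and 8, and that of the beta-oxidation enzymes was 0.565 and 0.341. That of the amino acid and urate genes was 0.414 without liver 4 and -0.00895 without both, that of transport and acyl handling 0.0885 and 0.0159, and that of the peroxins 0.0644 and -0.0414. These are descriptions of 8 livers that share arrays and their scaling, and the genes are not independent of each other.

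Of 16 chosen pairs of genes, 9 could be run, and 3 passed by Pearson's r after adjustment over the 9 (exact two-sided permutation over all pairings of the 8 livers). Acaa1a and Acaa1b rose and fell together (r = 0.872, exact p = 0.00479 by permutation, adjusted p = 0.0305, and Spearman's rho = 0.952 with p = 0.00114 and adjusted p = 0.0103). Without livers 3 and 8, the farthest from the median of Acaa1a, r was 0.80. With the tested probe sets of each gene averaged, r was 0.705 (exact permutation, adjusted p = 0.0813). As probes for these near-copies can bind both transcripts, shared expression and shared binding cannot be told apart in this pair. Uox and Xdh, xanthine dehydrogenase, which makes the urate that Uox degrades, ran in opposite directions (r = -0.826, exact permutation p = 0.0107, adjusted p = 0.032, rho = -0.857 with p = 0.0107 and adjusted p = 0.0482). Xdh was at 557 in liver 1, had a median of 1266 and reached 2417 in liver 4. Without livers 1 and 4, r was -0.655.

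Ehhadh followed Cyp4a14, a fatty acid hydroxylase that PPAR-alpha induces (r = 0.812, exact permutation p = 0.00677, adjusted p = 0.0305), although the ranks did not pass (rho = 0.762, exact permutation p = 0.0368, adjusted p = 0.11). Without livers 4 and 6, r was 0.746. Cyp4a14 was at 711 in liver 4, had a median of 4937 and reached 6396 in liver 2. The pairs of Ehhadh with Acaa1b (r = 0.556), Ech1 (0.691) and Ppara (-0.0278), and those of Hsd17b4 with Scp2 (0.747), Pex13 with Pex14 (0.667) and Pex5 with Pex7 (0.0743), did not pass (exact permutation, adjusted p = 0.199, 0.112, 0.945, 0.0762, 0.123 and 0.945). Their rho values were 0.548, 0.429, 0.0476, 0.69, 0.214 and 0.0952, with adjusted p = 0.308, 0.449, 0.935, 0.156, 0.796 and 0.935 by exact permutation.

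Spike-in signals differed between livers 1 to 4 (mean log2 10.70 to 10.88) and livers 5 to 8 (10.18 to 10.46), although the labels name no batch. Centred within these sets of 4, r was 0.878 for Acaa1a with Acaa1b, -0.808 for Uox with Xdh and 0.808 for Ehhadh with Cyp4a14. For Hsd17b4 with Scp2 it was 0.865. Centred values cannot be exchanged freely between the sets, so no p-value is given for them. With arrays scaled to a common median, Hsd17b4 with Scp2 passed (r = 0.846, exact permutation, adjusted p = 0.032). It did not pass with quantile normalization (r = 0.527, exact permutation, adjusted p = 0.23) or without liver 3 (r = 0.60, exact permutation, adjusted p = 0.198). Without livers 4 and 8, r was 0.928, -0.708 and 0.542 for the 3 pairs, and 0 of the 9 passed with the 6 livers left.

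**Figure D4:**
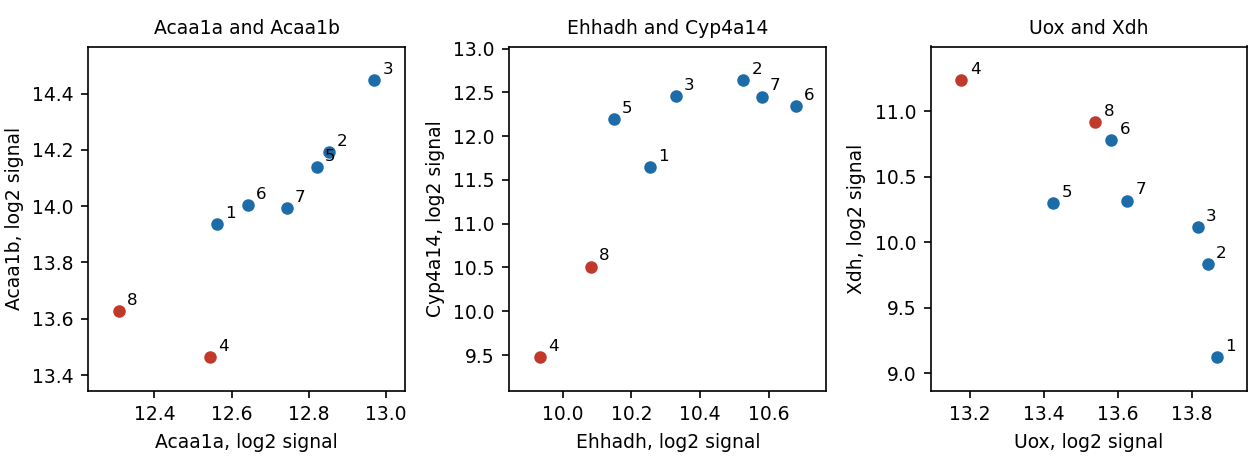
Log2 signal of the second gene against that of the first in the 8 livers, numbered, for the 3 pairs that passed, with livers 4 and 8 in red. Acaa1a and Acaa1b, whose probes can bind both transcripts, rise together (r = 0.872). Ehhadh and Cyp4a14 rise together (r = 0.812), and Uox and Xdh run in opposite directions (r = -0.826).

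A mixed list of 47 further genes linked to the organelle, not all of them mainly peroxisomal, did not share the pattern as a group. Of these, 20 were tested, with a mean pairwise correlation of 0.00395, and 4 passed the typical-variance test (20%, against 9.09% of all genes). Those 4 were Xdh, Idi1, an enzyme of sterol synthesis, Hao2, a long-chain hydroxy acid oxidase, and Ide, an insulin-degrading protease that is mostly cytosolic. Livers 4 and 8 held the lowest values together for 3 of the 20 (15%), namely Ephx2, Hao2 and Mlycd, against 11.5% of all tested genes. They held the highest together for 2 (10%), Xdh and Idi1, against 9.73% of all tested genes. Hao2 was at 1090.0 in liver 4 and 1278 in liver 8, with a median of 2327 and 2856 in liver 7. Idi1 was at 916 in liver 2, had a median of 1951 and reached 2812 in liver 4. Lonp2, the peroxisomal protease, and Gstk1, a glutathione transferase, were the most uniform, with SDs of 0.11 and 0.12.

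Of 19 listed genes of PPAR-alpha and mitochondrial fatty acid oxidation, 14 were tested and 5 passed (35.7%, against 9.09% of all genes). These were Cyp4a14, Ppara, Vnn1, Acot1 and Cyp4a10. The median range over the 14 was 1.82-fold, against 1.67-fold over the 26 peroxisomal genes. The ranges were 8.99-fold for Cyp4a14, 5.79-fold for Ppara and 7.68-fold for Vnn1, a pantetheinase, the genes named for their large SDs. Livers 4 and 8 held the lowest values together for 7 of the 14 (50%), as they did for 13 of the 26 peroxisomal genes, against 11.5% of all tested genes. Ppara itself was at 678 in liver 6, had a median of 2060.1 and reached 3925 in liver 3. Cpt1a, the gate of mitochondrial oxidation, and Rxra, the partner receptor, each had an SD of 0.19 and were the most uniform.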

How the data were processed

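Liver RNA of 8 mice was hybridised to Affymetrix U74Av2 arrays read on a Hewlett-Packard GeneArray scanner, per the labels. The values, as deposited, are linear intensities of 12488 probe sets, 1 for each liver. How images became intensities, with which scaling and detection calls, is not given in the sources used here. The mean after trimming 2% of values at each end was 500.4 on every array, so no further scaling was applied.

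Intensities under the 10th percentile, 11.2, were raised to it before log2 transformation. The 66 control probe sets were left out. Of the 12422 others, 10833 carried 1 symbol and 396 several in the platform annotation, and genes were named from the first kind only. The typical variance was a loess curve (span 0.3) of log variance on mean log2 signal, and the ratio was tested with 7 degrees of freedom. The other test, with an intensity-trended robust prior of 4.9 degrees of freedom, used limma 3.58.1 in R 4.3.3. Both were tested on simulated data. Tables and permutations used Python 3.11.15 with numpy 2.4.6. Promoters came from RefSeq (GRCm38.p6), and motifs were chosen with their windows known.

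Full values were given for members past the typical-variance test, the 10 tested members with the largest SDs and the 5 with the smallest. From each of the 2 other lists, the 3 genes with the largest SDs, the 2 with the smallest and those in the pairs were named. Ide, Ephx2, Mlycd, Acot1 and Cyp4a10 fell outside this rule and were named after their values were seen. Members, lists, pairs and tests were chosen with earlier results of these data known. The labels do not say that arrays came from separate extractions, and 8 arrays limit the precision. Alternatives in scaling, floor, filter, test, probe set choice and livers were tried.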

Additional observations from a re-analysis of the deposited data

Results flagged for a closer look

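In 2 of the 34 member probe sets, 1 of them among the 30 tested, the signal of 1 liver lay farther from the others than expected for a group of 8 at the 95% level of Dixon's test on the log2 scale. Of all tested probe sets 7% did so, and chance flags about 1 group in 20. Crat was at 298.3 in liver 4, where the nearest other signal was 528 in liver 8. Dao was at 32.0 in liver 3, where the nearest was 82.1 in liver 1, with all its signals too low to tell from background or near that limit. Among the genes named from the other lists, Gstk1 stood out, at 4569 in liver 5, where the nearest was 3882 in liver 6.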

How the results depend on the processing

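No paired analysis was possible because all 8 livers belong to 1 group. The median SD of the members was 0.292 with median scaling, where that of all tested genes was 0.245. The typical-variance test called 0 member probe sets without livers 4 and 8, where the median SD was 0.182 and the mean pairwise r 0.112. The limma F test also called 0. With 1 liver left out in turn, the calls ran between 0 (without liver 4) and 3, the median SD between 0.205 (without liver 4) and 0.258, and the mean pairwise r between 0.273 (without liver 4) and 0.51. Of the 9 pairs, 5 passed with median scaling, 1 with quantile normalization and 0 without livers 4 and 8. With 1 liver left out, between 0 (without liver 2, 3 or 7) and 4 (without liver 5) passed, 1 each without liver 4 or 8. Acaa1a with Acaa1b also lost its call when a gene's tested probe sets were averaged. The cause of these changes was not tested. The direction of r was kept for the 3 passing pairs in every alternative, at 0.705 to 0.966 for Acaa1a with Acaa1b, 0.542 to 0.90 for Ehhadh with Cyp4a14 and -0.877 to -0.655 for Uox with Xdh. Other floors, other filters, removal of shared-sequence probe sets and a wider loess span left the calls of Amacr and Acaa1b in place. Without detection calls, signals near the limit for testing, as in Acot8, are the least certain.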
